A study of Arabidopsis thaliana with 6 samples.

Results

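The nuclear genes of the photosystems and their light-harvesting antenna were examined in epiRIL12, an epigenetic recombinant inbred line of Arabidopsis thaliana, and in the reference accession Col. The genes were chosen by locus as the listed nuclear genes of photosystem I, photosystem II and the LHCA and LHCB antenna proteins; the rule uses no measured value, though it was written with earlier results of these data known. They numbered 38 of the 29670 loci in the deposited table, and all 38 were measured: 12 core subunits of photosystem I, 6 LHCA genes, 12 LHCB genes and 8 genes of photosystem II. An epigenetic recombinant inbred line descends from a cross of wild-type Col with a mutant that has lost DNA methylation, and its chromosomes are a mosaic of segments inherited from both parents. There were 3 arrays of epiRIL12 and 3 of Col, all from untreated plants 14 days old under long days, and the labels name the tissue once as whole seedlings and once as rosette leaves. The labels do not give the founder mutant, the generation of the line or the number of plants behind an array. epiRIL12 is 1 line, so a difference would belong to that line and not to lines of its kind. Nothing states that the 3 samples of a genotype were grown apart, and the p-values therefore measure the spread between these samples, which may be technical.

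Photosystem II uses light to take electrons from water, and photosystem I lifts them further so that they can reduce ferredoxin. The reaction centre proteins are encoded in the chloroplast, while many of the other subunits and all LHCA and LHCB antenna proteins are made from nuclear genes and imported. LHCA proteins bind chlorophyll around photosystem I and LHCB proteins around photosystem II, and in green leaves their mRNAs are among the most abundant of the cell. The nuclear genes of this group are known to be driven by light, the circadian clock and signals from the chloroplast.

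None of the 38 genes differed between epiRIL12 and Col by the test applied to all loci (limma, Benjamini-Hochberg adjusted p under 0.05 over 29670 loci). Of all loci, 289 passed (0.974%), 264 of them higher and 25 lower in epiRIL12. A count of 0 among 38 genes is near that share and is not read as a trait of the group. At an unadjusted p under 0.05 there were 0 of the 38 genes, against 7.04% of all loci, and the lowest adjusted p among the 38 was 0.746 (limma). The differences of epiRIL12 minus Col ran from -0.12 for PSAN to 0.23 for LHCB4.3 on the log2 scale. They were smaller than 0.1 in either direction for 36 of the 38 genes (94.7%), against 84.2% of the 152 other loci with a mean log2 level of 13 or more, where 32 of the 38 genes lie, and 48.8% of all loci. For 36 genes the difference was also smaller than its own limma standard error, against 18681 of all 29670 loci. As given below, limma widened the interval of 35 of the 38 genes, so neither this count nor the counts by p-value are a separate sign of stability. The median of the 38 differences was 0.0046, with 25 above and 13 below 0, and the median over all loci was -0.02, with 43.4% above 0.

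The limma 95% intervals give the differences compatible with the values of these arrays. Taken gene by gene and not adjusted for the number of genes, all 38 intervals lay between -0.37 and 0.48, which corresponds to 0.772-fold and 1.396-fold. The intervals that reached farthest from 0 were those of LHCB4.3 (0.48), PSBW (-0.37) and PSAN (-0.34). The standard errors of the 38 differences ran from 0.08 to 0.13. limma draws the variance of each locus towards a value shared by the whole table, and the replicate SD of these genes (median 0.07) was below that of all loci (median 0.17), so the interval of 35 of the 38 genes was wider than their own replicates alone would give; those of PSAH1, LHCB1.1 and PSBW were narrower.

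**Figure D1:**
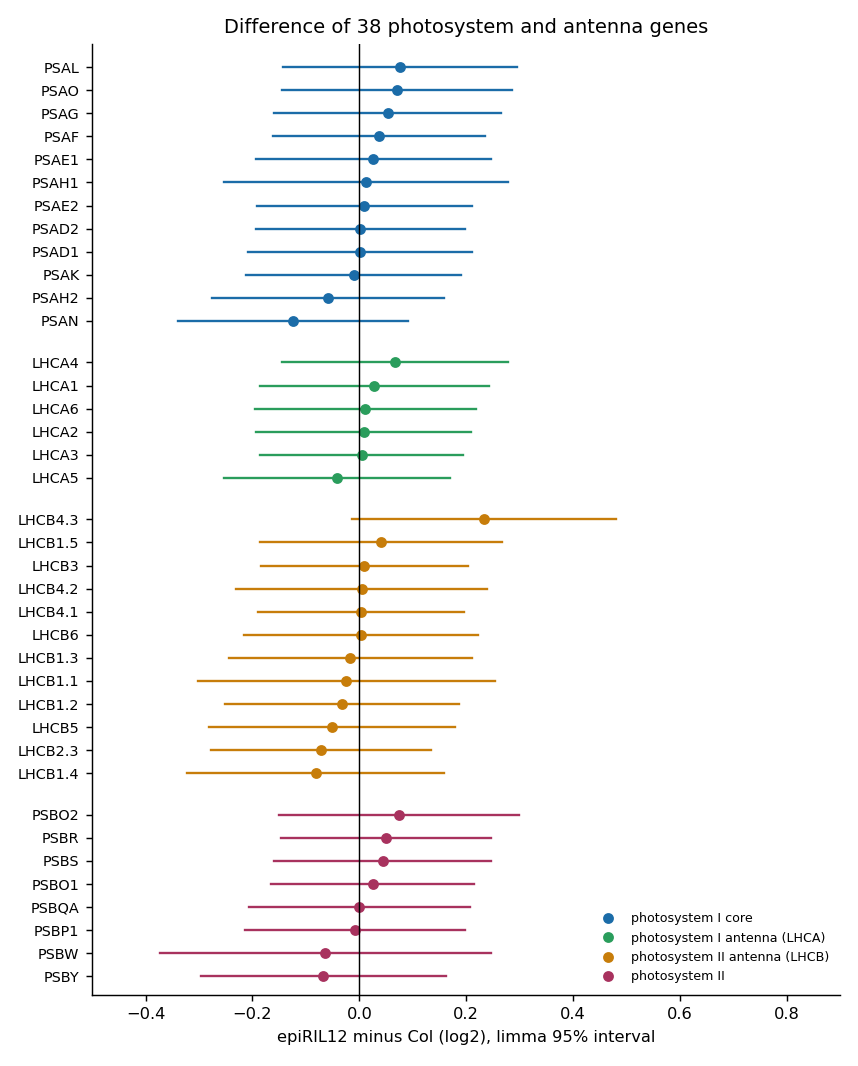
Each point is the difference of epiRIL12 minus Col (log2) of 1 gene, with its limma 95% interval, ordered by size within the 4 groups. All 38 intervals include 0, and the highest point, LHCB4.3 at 0.23, stands apart from the other LHCB genes.

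The photosystem I core showed its extremes in PSAN and PSAL. PSAN (AT5G64040), a small subunit on the lumen side where plastocyanin delivers electrons, had log2 values of 14.18, 14.07 and 14.18 in epiRIL12, against 14.23, 14.36 and 14.23 in Col. All 3 epiRIL12 values lay below all 3 Col values, and PSAN was the only one of the 38 genes of which this was true (2.63%), against 6.89% of all loci. The difference was -0.12 (SE 0.09, interval -0.34 to 0.09, limma adjusted p = 0.909). PSAL (AT4G12800), which joins the reaction centre to the docking site for mobile antenna, had 12.65, 12.46 and 12.56 in epiRIL12, against 12.52, 12.47 and 12.45 in Col. The groups overlapped, since epiRIL12 replicate 2 lay among the Col values (difference 0.08, SE 0.09, limma adjusted p = 0.965); without epiRIL12 replicate 1 the difference was 0.03.

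PSAD and PSAE form the stromal ridge that receives ferredoxin, and each is encoded by a pair of genes. PSAD1 (AT4G02770) had 13.99, 13.94 and 14.03 in epiRIL12, against 13.91, 13.99 and 14.06 in Col, and PSAD2 (AT1G03130) had 14.37, 14.38 and 14.42, against 14.34, 14.40 and 14.42. Both differences were near 0 (0.0011 and 0.0018), with intervals of -0.21 to 0.21 and -0.19 to 0.20. PSAE1 (AT4G28750) differed by 0.03 (SE 0.09), with 14.64, 14.53 and 14.72 in epiRIL12 around the Col values of 14.55, 14.62 and 14.64. PSAE2 (AT2G20260) averaged 12.88 ± 0.05 in epiRIL12 and 12.87 ± 0.04 in Col (SD, n = 3 each). In all 4 genes the ranges of the genotypes overlapped.

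PSAF (AT1G31330), the docking subunit for plastocyanin, averaged 14.47 ± 0.06 in epiRIL12 and 14.43 ± 0.02 in Col (SD, n = 3 each; difference 0.04, SE 0.08). PSAG (AT1G55670) and PSAK (AT1G30380), related membrane subunits at the antenna edge, had differences of 0.05 (SE 0.09) and -0.01 (SE 0.08). PSAH, which is needed for antenna to move to photosystem I in state transitions, is again a pair. PSAH1 (AT3G16140) spread most widely of the photosystem I genes in Col, with 13.63, 13.49 and 13.66 in epiRIL12, against 13.42, 13.61 and 13.72 in Col, and its difference was 0.01 (SE 0.11). PSAH2 (AT1G52230) stood at -0.06 (SE 0.09) and PSAO (AT1G08380), which takes part in the same docking, at 0.07 (SE 0.09). Over the 12 core genes, 9 differences were above 0 and 3 below, with a median of 0.01, and no gene was called.

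Of the photosystem I antenna, LHCA1 to LHCA4 build the belt of chlorophyll proteins on one side of the reaction centre. Their differences lay between 0.0047 for LHCA3 and 0.07 for LHCA4. LHCA4 (AT3G47470), the highest of the 6, had log2 values of 14.93, 14.97 and 14.94 in epiRIL12, against 14.79, 14.97 and 14.88 in Col, so the epiRIL12 values sat together at the upper end of a wider Col range (SE 0.09, limma adjusted p = 0.971); without Col replicate 1 the difference was 0.02. LHCA3 (AT1G61520) had the smallest pooled replicate SD of the 38 genes, 0.02, with means of 14.40 ± 0.02 in epiRIL12 and 14.40 ± 0.01 in Col (SD, n = 3 each). LHCA1 (AT3G54890) differed by 0.03 (SE 0.09) and LHCA2 (AT3G61470) by 0.0079 (SE 0.08).

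LHCA5 and LHCA6 are minor antenna proteins known for linking photosystem I to the chloroplast NDH complex, which returns electrons from ferredoxin to plastoquinone. LHCA5 (AT1G45474) had 11.09, 11.07 and 11.12 in epiRIL12, against 11.24, 11.10 and 11.08 in Col, a difference of -0.04 (SE 0.09, interval -0.25 to 0.17). LHCA6 (AT1G19150) had 11.22, 11.31 and 11.18 in epiRIL12, against 11.21, 11.19 and 11.28 in Col, a difference of 0.01 (SE 0.09, interval -0.20 to 0.22). In both linkers the ranges overlapped. NdhU (AT5G21430), a subunit of the NDH complex itself and no member of this group, averaged 6.89 ± 0.10 in epiRIL12 and 10.28 ± 0.14 in Col (SD, n = 3 each; difference -3.39, SE 0.11, limma adjusted p = 3.3e-05).

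Among the LHCB genes LHCB4.3 held the largest difference of the whole group. LHCB4 is the minor antenna protein CP29, and LHCB4.3 (AT2G40100) is the isoform whose gene is known to be controlled apart from the other 2. Its log2 values were 9.22, 9.37 and 9.23 in epiRIL12, against 9.11, 8.90 and 9.11 in Col. All 3 epiRIL12 values lay above all 3 Col values, which was true of no other gene among the 38 (2.63%), against 5.19% of all loci. The difference was 0.23 (1.18-fold, SE 0.10, interval -0.01 to 0.48), its unadjusted p was 0.0609 and its limma adjusted p 0.746. Over the other settings tried the adjusted p ran from 0.628 to 0.898 and the difference from 0.16, without Col replicate 2, to 0.29, without both arrays numbered 3. Only a fit with 2 changes together, a variance trend with signal level and robust estimation, gave an unadjusted p under 0.05, 0.0298 (limma adjusted p = 0.628). LHCB4.1 (AT5G01530) had 14.69, 14.73 and 14.75 in epiRIL12, against 14.75, 14.71 and 14.70 in Col, and LHCB4.2 (AT3G08940) had 14.14, 14.29 and 14.20, against 14.33, 14.12 and 14.17. Their differences were 0.0032 (SE 0.08) and 0.0044 (SE 0.10), with overlapping ranges.

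The 5 LHCB1 genes encode the main protein of the mobile trimeric antenna LHCII. LHCB1.2 (AT1G29910), LHCB1.1 (AT1G29920) and LHCB1.3 (AT1G29930), also called CAB3, CAB2 and CAB1, follow each other in locus order on chromosome 1, and LHCB1.5 (AT2G34420) and LHCB1.4 (AT2G34430) do so on chromosome 2. The coding sequences of the family are nearly alike, probe sequences were not used here, and the values of its members may rest on shared signal. LHCB1.1 had 15.09, 14.80 and 15.06 in epiRIL12, against 14.90, 15.11 and 15.03 in Col, with 1 low array in epiRIL12 (difference -0.02, SE 0.12). LHCB1.2 differed by -0.03 (SE 0.09) and LHCB1.3 by -0.02 (SE 0.10). LHCB1.3 spread little in epiRIL12 (15.22 ± 0.01) and more in Col (15.24 ± 0.12; SD, n = 3 each).

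LHCB1.4 had the lowest difference of the LHCB genes, with 13.79, 13.59 and 13.84 in epiRIL12, against 13.81, 13.86 and 13.79 in Col. The groups overlapped and the low epiRIL12 mean came from replicate 2 (difference -0.08, SE 0.10, limma adjusted p = 0.966), without which the difference was -0.0059. Its neighbour LHCB1.5 had 15.34, 15.19 and 15.37 in epiRIL12, against 15.19, 15.31 and 15.28 in Col (difference 0.04, SE 0.09). LHCB2.3 (AT3G27690), of the second LHCII protein, averaged 13.67 ± 0.07 in epiRIL12 and 13.74 ± 0.04 in Col (SD, n = 3 each; difference -0.07, SE 0.09). LHCB3 (AT5G54270), the third LHCII protein, stood at 0.0095 (SE 0.08). The minor antenna genes LHCB5 (AT4G10340, CP26) and LHCB6 (AT1G15820, CP24) stood at -0.05 (SE 0.10) and 0.0028 (SE 0.09). Of the 12 LHCB differences 6 were above 0 and 6 below, and their median was -0.0073.

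In photosystem II the nuclear genes measured encode the proteins that shield the water-splitting manganese cluster and several small or regulatory subunits. PSBO, the subunit that stabilises the cluster, comes from a pair of genes. PSBO1 (AT5G66570) had 14.32, 14.35 and 14.36 in epiRIL12, against 14.33, 14.33 and 14.31 in Col (difference 0.02, SE 0.08, interval -0.17 to 0.22). PSBO2 (AT3G50820) had the highest difference of the 8 genes, 0.07 (SE 0.09, limma adjusted p = 0.969), from 12.98, 12.77 and 12.85 in epiRIL12, against 12.75, 12.77 and 12.85 in Col; the groups overlapped, and without epiRIL12 replicate 1, the highest array, the difference was 0.02, below that of PSBR at 0.07. PSBP1 (AT1G06680) and PSBQA (AT4G21280), which hold the calcium and chloride needed for water splitting, had differences of -0.0079 (SE 0.09) and 9.7e-05 (SE 0.09).

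PSBS (AT1G44575, NPQ4), which switches the antenna to heat dissipation in excess light, had 13.85, 13.79 and 13.76 in epiRIL12, against 13.71, 13.73 and 13.82 in Col (difference 0.04, SE 0.08). PSBR (AT1G79040), which helps the water-splitting proteins assemble, stood at 0.05 (SE 0.08). PSBY (AT1G67740), a small membrane subunit, had the lowest value of the 8 genes, -0.07 (SE 0.10, limma adjusted p = 0.974), from 14.56, 14.41 and 14.59 in epiRIL12, against 14.50, 14.62 and 14.65 in Col; without epiRIL12 replicate 2 it was -0.01. PSBW (AT2G30570), a small subunit that stabilises the supercomplex with its antenna, had the widest spread of the 38 genes. Its values were 14.45, 14.15 and 14.44 in epiRIL12, against 14.27, 14.56 and 14.40 in Col. Thus epiRIL12 had 1 low array and the Col values were spread out. The difference of -0.06 (SE 0.13) had the interval of -0.37 to 0.25.

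The replicates of a genotype differed from each other together in many of these genes. Of the 38 genes, 23 had their lowest epiRIL12 value on replicate 2, and 20 had their lowest Col value on replicate 1. For 17 genes both held, among them LHCB1.1, LHCB1.2, LHCB1.5, PSAH1, PSAN, PSBW and PSBY. The median deviation of the 38 genes from their genotype mean was -0.05 on epiRIL12 replicate 2, against 0.01 and 0.03 on epiRIL12 replicates 1 and 3; it was -0.03 on Col replicate 1, against 0.02 and -0.0059 on Col replicates 2 and 3. The 152 other loci with a mean level of 13 or more deviated in the same direction on these 2 arrays, by -0.03 and -0.02, while the median deviation over all loci was 0.0022 and 0.0020. Whether this shift among loci of high signal set the spread of the photosystem genes was not tested. Leaving out any 1 array moved the median difference of the 38 genes between -0.01, without epiRIL12 replicate 3, and 0.02, without epiRIL12 replicate 2, and no gene was called.

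**Figure D2:**
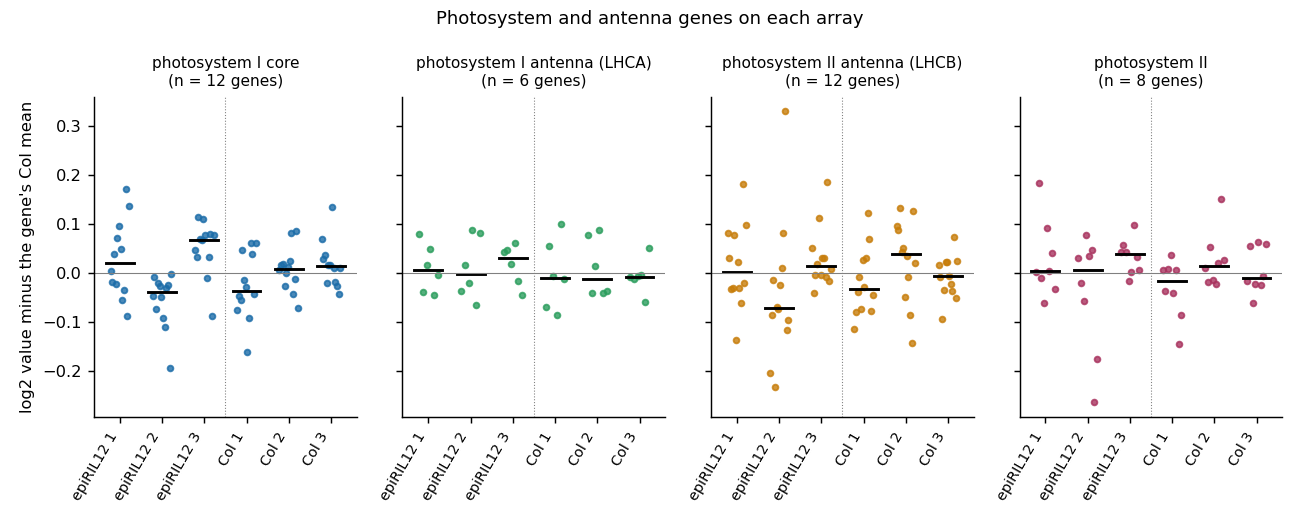
Points are genes, placed by their log2 value on each array minus the gene's own Col mean; bars are the medians of the 4 groups. All photosystem I core points on epiRIL12 replicate 2 lie below 0, some of them only just, and the single LHCB point above 0.3 on that array is LHCB4.3.

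Where 2 genes encode the same subunit, the gap between them on each array was compared between genotypes, which removes a shift common to both. For PSAD1 minus PSAD2 the gap averaged -0.40 ± 0.03 in epiRIL12 and -0.40 ± 0.04 in Col (SD, n = 3 each), a shift of -0.00069. The gap of PSAH1 minus PSAH2 shifted most of the 5 pairs, by 0.07, with -0.76, -0.85 and -0.78 in epiRIL12, against -0.94, -0.92 and -0.74 in Col. The shift was 0.02 for PSAE1 and PSAE2, -0.05 for PSBO1 and PSBO2, and -0.0012 for LHCB4.1 and LHCB4.2. The exact two-sided permutation p ran from 0.4 to 1 and was 1 for each pair after adjustment over the 5 pairs; with 3 arrays against 3 this test cannot go below 0.1. The gaps themselves are differences of array values at different probes and say nothing of which gene of a pair has more mRNA. Probe sequences were not used here, so the values of a pair may rest partly on shared signal, which was not tested.

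These genes sat at the top of the array scale. The mean log2 level was 13 or more for 32 of the 38 genes, and 26 of the 50 loci with the highest array values were members of the group, 4 of them among the 10 highest. The exceptions were PSAL (12.52), PSBO2 (12.83), PSAE2 (12.87), LHCA6 (11.23), LHCA5 (11.12) and LHCB4.3 (9.16). The highest value of any locus was 15.34 to 15.47 on the 6 arrays, and LHCB1.5 reached 15.37. Values of different loci depend on their probes, so this order is one of array signal. Differences were small at this height in general: their median size was 0.04 over the 152 other loci at 13 or more, 0.03 over the 38 genes and 0.10 over all loci. Of those 152 loci 1 was called, ESM1 (AT3G14210), a gene of glucosinolate breakdown, with 13.85 ± 0.03 in epiRIL12 and 13.04 ± 0.06 in Col (SD, n = 3 each; difference 0.81, SE 0.08, limma adjusted p = 0.00681). Whether signal near the upper end of the scale is compressed, so that a change in mRNA would appear smaller there, was not tested.

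**Figure D3:**
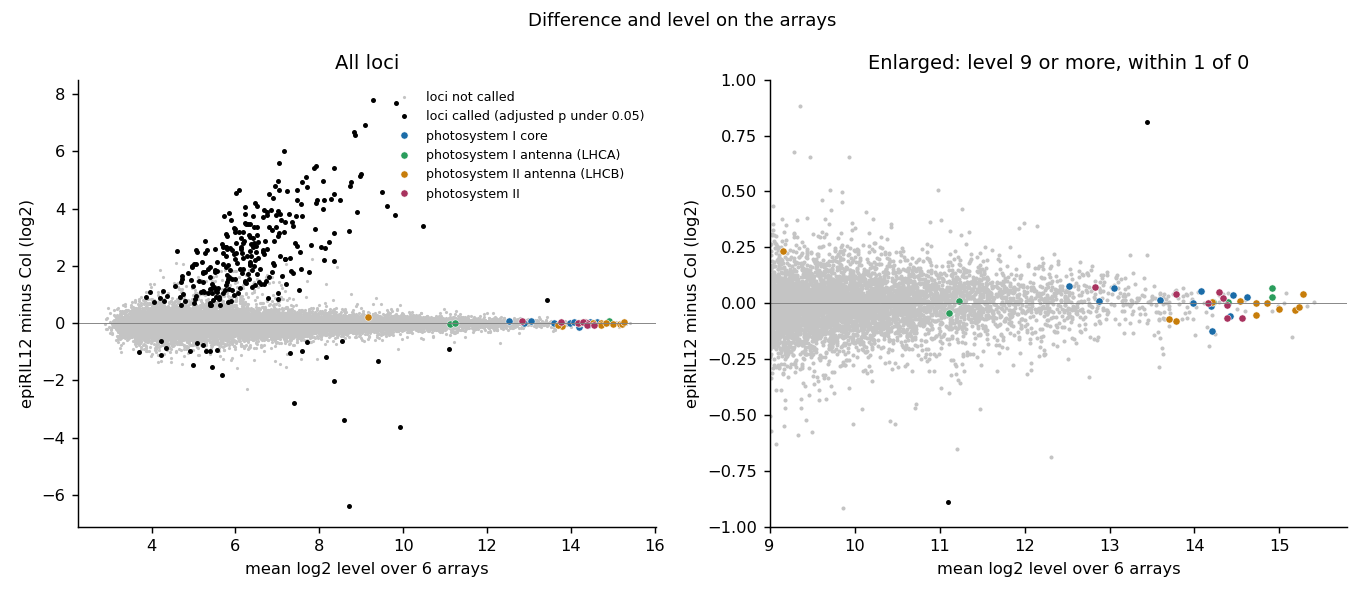
Difference of epiRIL12 minus Col (log2) against the mean log2 level over the 6 arrays, for all loci on the left and enlarged on the right, where loci beyond 1 in either direction are not shown. The photosystem and antenna genes crowd at levels of 13 and more, near 0; the black point at 0.81 among them is ESM1, and LHCB4.3 is the lone member near level 9.

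Other genes of photosynthesis gave the same count of calls, which is likewise near the share of all loci and not read as their trait. Of 59 measured genes in 7 lists outside the group, 0 rose and 0 fell (limma, adjusted p under 0.05), against 0.974% called of all loci; 0 had an unadjusted p under 0.05, and their lowest adjusted p was 0.799. Their median difference was -0.04, with 21 above and 38 below 0, against 12874 above and 16796 below over all loci. Among 10 further photosystem and antenna loci the values ran from -0.24 (SE 0.12) for PSBP-2, a second PSBP gene, to 0.10 (SE 0.09) for LHCB7 (AT1G76570). Of 11 genes for electron carriers and the chloroplast ATP synthase, the lowest was the ferredoxin reductase gene FNR2 at -0.12 (SE 0.09) and the highest the cytochrome complex gene AT2G26500 at 0.15 (SE 0.16).

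The 6 genes for antenna phosphorylation and cyclic electron flow ran from -0.16 (SE 0.09) for TAP38, the phosphatase that reverses state transitions, to 0.04 (SE 0.08) for PGRL1A, a protein of cyclic flow. STN7, the kinase that phosphorylates LHCII, stood at -0.06 (SE 0.09). Early light-induced proteins, which bind pigment under light stress, gave both ends of their list of 5, ELIP1 at 0.30 (SE 0.21) and ELIP2 at -0.24 (SE 0.13).

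Chlorophyll synthesis, without which LHC proteins are not stable, was represented by 15 genes with a median difference of -0.02. The protochlorophyllide reductase gene PORA had the largest value, -0.52 (SE 0.33, limma adjusted p = 0.885), from 8.26, 7.54 and 8.54 in epiRIL12, against 8.54, 9.19 and 8.19 in Col; the groups overlapped widely. The highest was the chlorophyll synthase gene G4 at 0.14 (SE 0.09, adjusted p = 0.876), whose 3 epiRIL12 values of 11.47, 11.37 and 11.39 lay above the Col values of 11.27, 11.20 and 11.33. Such separation was found for 2 of the 59 genes above Col, G4 and CRD1, and for 2 below, FED A and CGA1, against 5.19% and 6.89% of all loci. The 4 genes that target antenna proteins to the thylakoid ran from -0.12 (SE 0.09) for CPSRP54 to 0.03 (SE 0.12) for CPSRP43, 2 subunits of the chloroplast signal recognition particle.

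Of 8 regulators of photosynthesis genes, 7 had differences below 0, against 16796 of all 29670 loci, and none was called. Their median was -0.12 beside -0.02 over all loci. The transcription factor genes GLK1 (GPRI1) and GLK2, known activators of antenna and chlorophyll genes, stood at -0.12 (SE 0.10) and -0.20 (SE 0.12, limma adjusted p = 0.859). GLK2 was the lowest of the list, with 10.58, 10.88 and 10.75 in epiRIL12, against 11.07, 10.90 and 10.86 in Col, overlapping through epiRIL12 replicate 2. HY5, an activator in light, stood at -0.11 (SE 0.13), and PIF1 (PIL5), a repressor of chlorophyll genes in the dark, at 0.02 (SE 0.09), the highest of the list.

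**Figure D4:**
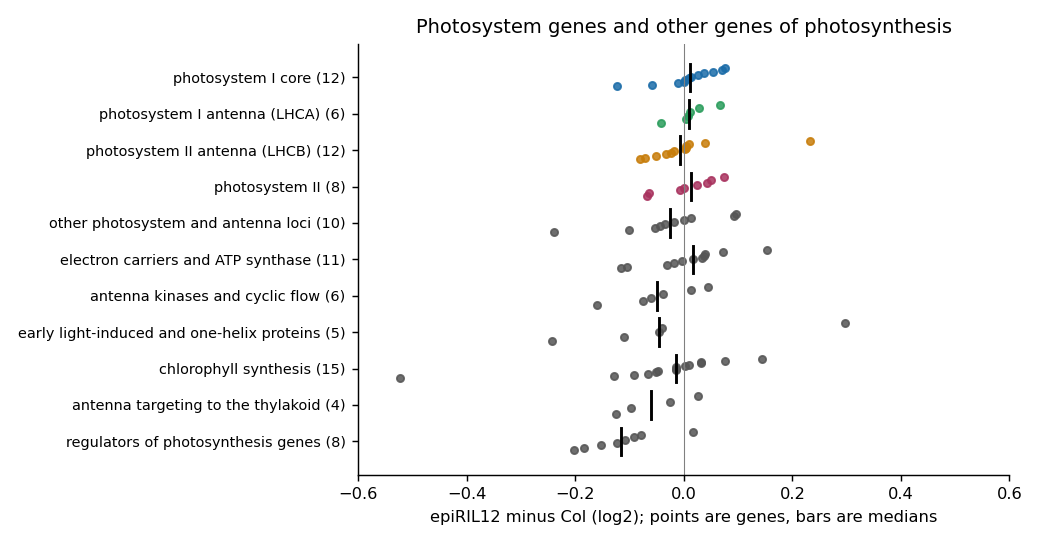
Differences of epiRIL12 minus Col (log2) for the 4 photosystem groups and the 7 other lists; points are genes and bars medians, with the number of genes in brackets. The photosystem points lie within 0.24 of 0, and PORA at -0.52 is the farthest point of the other lists.

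None of the 38 genes had a called locus within 5 positions in locus order, while 6.99% of all loci did. At that share only a few of 38 genes would have one, so this count is not read as a trait of the group. The median distance from a gene of the group to the nearest called locus on its chromosome was 182.5 positions. The same median over all loci was not computed. The shortest was 9 positions, from LHCB4.1 to AT5G01445 (difference -1.45). Chromosome 1 carried 17 of the 38 genes and chromosome 3 carried 7, with 4 or 5 on each of the others. LHCB4.3 on chromosome 2 was 93 positions from its nearest called locus, AT2G40955 (3.86). In the RefSeq annotation 17 of the 38 genes overlapped a neighbouring gene, and the labelled target keeps no strand, so signal of overlapping transcripts could not be separated; 0 of the 17 overlapping loci measured were called.

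Of the 59 genes in the other lists, 4 had a called locus within 5 positions (6.78%), a share near the 6.99% of all loci. LHCB2.2 (AT2G05070), a further gene of the second LHCII protein, had 2 called loci within 5 positions, the nearer being AT2G05040 at 2 positions (difference 2.504). LHCB2.2 itself had 15.06, 14.98 and 15.12 in epiRIL12, against 15.02, 15.00 and 15.14 in Col (difference 0.00083, SE 0.09). PSBX (AT2G06520), a small photosystem II subunit, lay 3 positions from AT2G06490 (2.97), and had 14.66, 14.52 and 14.61 in epiRIL12, against 14.53, 14.64 and 14.58 in Col (difference 0.01, SE 0.09). Both photosystem genes overlapped between the genotypes, while the named loci beside them rose in epiRIL12. PGR5, a factor of cyclic electron flow, lay 3 positions from AT2G05640 (0.92) and stood at -0.08 (SE 0.11), and STN7 lay 2 positions from AT1G68845 (-0.97).

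The tissue was checked against marker genes. The 6 green-leaf markers, genes of carbon fixation and photorespiration such as RBCS1A and HPR, had mean log2 levels of 13.58 to 15.41, and their medians per array were 14.06 to 14.17 in epiRIL12 and 14.07 to 14.17 in Col. The 13 root markers lay between 4.14 (MYB36) and 6.64 (CASP1), with medians per array of 5.33 to 5.62 in epiRIL12 and 5.36 to 5.60 in Col. The mean of each of the 13 root markers was below the median of all loci, 6.80 to 6.84 on the arrays, and their log2 summed level was 9.30 to 9.56 in epiRIL12 and 9.41 to 9.54 in Col. A background level that would tell low from absent was not used here. Of the 4 flower markers the means were 5.14 (PI) to 6.79 (AP1), and of the 3 measured senescence markers SAG12 was lowest and NYC1 highest, at 10.63. All 4 flower differences were above 0, up to 0.49 (SE 0.23) for AP3, with a log2 summed level of 7.98 to 8.26 in epiRIL12 and 7.55 to 8.24 in Col; their part in the photosystem values was not tested. None of these 26 markers was called; EXPA18, a root hair gene, had the only unadjusted p under 0.05 (difference -0.33, SE 0.10, limma adjusted p = 0.504). In RNA from whole tissue, fewer green cells and less of these mRNAs per cell could not be told apart.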

How the data were processed

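Expression was measured on 6 Affymetrix arrays. Per the labels' protocols, total RNA was depleted of ribosomal RNA, amplified with random primers and hybridised as labelled double-stranded cDNA. The authors deposited 1 log2 value per locus and array. Their second deposited table names each locus and gives its log2 difference and p-value. The sources used here do not state the normalization, summarization, probe build or test. The value table is numbered and was joined by position to the named table: Pearson's r between the differences over loci, which are not independent, was 0.967 for matching rows and 0.167 for rows moved by 1. That check also gives the deposited difference the direction of epiRIL12 minus Col. Symbols, chromosomes and overlaps come from RefSeq's table of assembly TAIR10.1, in which all 38 genes matched. Positions in locus order are counted over the loci as ordered in the authors' named table. No coordinates or sequences are given, and a planned search for promoter motifs was not run.

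All loci were fitted with limma 3.58.1 in R 4.3.3 (genotype as the one factor, no filter, two-sided), after a check on simulated data, with Benjamini-Hochberg adjustment over 29670 loci. The ± values are SDs over the 3 arrays of a genotype, and SEs are moderated standard errors of differences. Permutation tests used scipy 1.17.1. The members were listed by locus and function, not by value, but they, the lists and the tests were chosen with earlier results of these data known. Values of all arrays were given for the extreme genes of each of the 4 groups and further genes chosen afterwards; from each list, called genes, the highest and the lowest were named, with further examples. The senescence list had 4 genes, of which 3 were measured. The number of arrays limits the precision.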

Additional observations from a re-analysis of the deposited data

How the results depend on the processing

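The count of 0 called photosystem and antenna genes held under all 13 alternatives: a replicate block, median centring, quantile normalization, the lowest 25% of loci left out, a trended robust eBayes, the authors' deposited p-values after adjustment, each of the 6 arrays left out in turn, and both arrays numbered 3 left out. So did the count of 0 among the 59 genes of the other lists. The alternatives called only 138 to 296 loci in all, so counts of 0 in groups of this size are not read as a trait. Members with an unadjusted p under 0.05 numbered 0 in each of these except the trended robust eBayes, which gave 1, LHCB4.3. Under the replicate block the lowest limma adjusted p among the members was 0.820, with 0 called. It called 210 loci in all, against 289 without it. The correlation of deviations between same-numbered arrays was -0.04, -0.07 and 0.13. For epiRIL12 replicate 3 the best match was Col replicate 3. The SD over all loci was 2.40 and 2.37 on these arrays, against 2.32 on each of the others. Whether same-numbered samples were handled together was not tested. The median difference of the members was -0.02 with median centring (all loci -0.05), 0.01 with quantile normalization (all loci -0.02) and -0.0032 without both arrays numbered 3.

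Apart from median centring, 22 of the 38 genes changed sign under at least 1 alternative, in 61 of 456 values. Median centring moved every member by the same -0.0234, so that each difference between 0 and that size had to change sign; with it the difference was -0.016 for LHCA2, -0.019 for LHCA3, -0.012 for LHCA6, -0.014 for LHCB3, -0.020 for LHCB4.1, -0.019 for LHCB4.2, -0.021 for LHCB6, -0.022 for PSAD1, -0.022 for PSAD2, -0.014 for PSAE2, -0.011 for PSAH1 and -0.023 for PSBQA. With quantile normalization the difference was -0.00024 for LHCA3, 0.019 for LHCB1.2, -0.0069 for PSAD2, -0.017 for PSAE2 and 0.022 for PSAK. Without both arrays numbered 3 the difference was -0.018 for LHCA2, -0.0055 for LHCA3, -0.0041 for LHCB3, -0.022 for LHCB4.1, -0.0074 for LHCB4.2, -0.032 for PSAE2 and -0.0023 for PSBQA. In the authors' deposited table the difference was -0.010 for LHCA2, -0.012 for PSAD1, -0.0092 for PSAH1 and -0.012 for PSBQA. When single arrays were left out, the LHCA differences that changed sign ran from -0.0064 to 0.067 for LHCA1, -0.013 to 0.035 for LHCA2, -0.0020 to 0.017 for LHCA3, -0.072 to 0.0077 for LHCA5 and -0.024 to 0.039 for LHCA6. The LHCB differences ran from -0.082 to 0.066 for LHCB1.1, -0.072 to 0.012 for LHCB1.2, -0.064 to 0.049 for LHCB1.3, -0.0046 to 0.027 for LHCB3, -0.010 to 0.020 for LHCB4.1, -0.039 to 0.066 for LHCB4.2, -0.089 to 0.013 for LHCB5 and -0.044 to 0.053 for LHCB6. The photosystem I and II differences ran from -0.037 to 0.036 for PSAD1, -0.022 to 0.017 for PSAD2, -0.018 to 0.077 for PSAE1, -0.022 to 0.032 for PSAE2, -0.068 to 0.080 for PSAH1, -0.033 to 0.020 for PSAK, -0.038 to 0.019 for PSBP1, -0.039 to 0.031 for PSBQA and -0.14 to 0.037 for PSBW. The cause of the changes under quantile normalization and in the authors' deposited table was not tested; the others had fewer arrays.

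The number of arrays limits the precision: a difference within a gene's interval was not detectable here.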
